A study of Ciona robusta with 8 samples.

Results

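The FGF and MAPK input to the cardiopharyngeal lineage was followed through 4 genes in sorted trunk ventral cells of the sea squirt Ciona robusta. The genes were chosen by their place in the pathway, with earlier results of these data known. They were the ligands Fgf9/16/20 (gene model KH2013:KH.C2.125) and Fgf8/17/18 (KH2013:KH.C5.5), the receptor Fgfr (KH2013:KH.S742.2) and the transcription factor Ets1/2 (KH2013:KH.C10.113). All 4 were found among the 15232 models of the KH gene set that the count tables list, and 3 of them reached the 11970 models with enough counts to be tested. The files give identifiers without names, and 0 of the 15232 identifiers matched a gene in the reference table of another assembly. The 4 names are therefore those under which the models were selected, and they could not be checked here. A ligand's name lists the vertebrate FGFs of its subfamily.

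In the tunicate larva these cells give rise to the heart and to pharyngeal muscle. CRISPR/Cas9 mutagenesis of Tcf, which encodes the DNA-binding partner of beta-catenin in Wnt signalling, was set against a control guide RNA (gRNA). The cells were sorted at 18 or 15 hours post fertilization (hpf), and each combination of gRNA and time has 2 libraries: the Tcf and then the control gRNA at 18 hpf, and likewise at 15 hpf, 4 groups in all. A sample held 200 to 800 sorted cells, per the labels' protocols. The sources used here do not give the drivers of Cas9 and of the sorting marker, the share of mutated cells or the gRNA sequences. No label says that libraries with the same gRNA and time are from separate batches of embryos, so p-values measure only their spread, which may be technical.

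FGF ligands are secreted proteins that bind FGF receptors, tyrosine kinases of the cell surface. The bound receptor signals through Ras, Raf, Mek and Erk (the MAPK cascade), and Erk phosphorylates transcription factors such as Ets1/2, which then act on target genes. In Ciona, FGF and MAPK signalling through Ets1/2 induces the trunk ventral cells from the heart founder lineage and lets them migrate. Later, continued signalling favours the pharyngeal muscle branch over the heart branch. These genes encode parts of the pathway, and the libraries measured their transcripts, not signalling or Erk activity.

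Library totals ran from 6207795 to 9556959 counts. In a chi-square comparison of counts, no pair of libraries agreed within sampling noise, so none was counted as a duplicate. The lowest statistic per degree of freedom, 5.44, was between Tcf replicate 1 and control replicate 2 of 15 hpf, which have different guides, while the 2 libraries of a group gave 7.47 to 13.6. Which model is Tcf cannot be told without names, and its level is not given. The markers of trunk ventral cells and of other cell types could not be looked up without gene names, and the labelled cell type was not checked against them. Levels are given in CPM (counts scaled to a common library total), with libraries scaled by trimmed mean of M-values (TMM). Models have no lengths in the files, so levels are compared between libraries for 1 gene and not between genes.

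Ets1/2, the Ets-family factor downstream of Erk, showed the largest change of the 3 tested genes, a 3.16-fold lower level at 18 than at 15 hpf. Fgfr and Fgf9/16/20 were lower at 18 hpf too, by 1.77-fold and 1.82-fold as the mean of both guides. Of the 8 fits that left out 1 library each, the call was lost in 0 for Fgfr and in 6 for Fgf9/16/20. Fgf8/17/18 had at most 10 counts in any library and was not tested. With the Tcf gRNA none of the 3 tested genes passed the threshold at either time, as 0.00835% of all tested models did at each. Fgfr had lower TMM-scaled values in both Tcf than in both control libraries of each time without passing it. This order was shared by 2.18% of all tested models. At 18 hpf it rested on 45.9 against 46.1 CPM in the nearest libraries and was not kept with library totals alone.

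**Figure D1:**
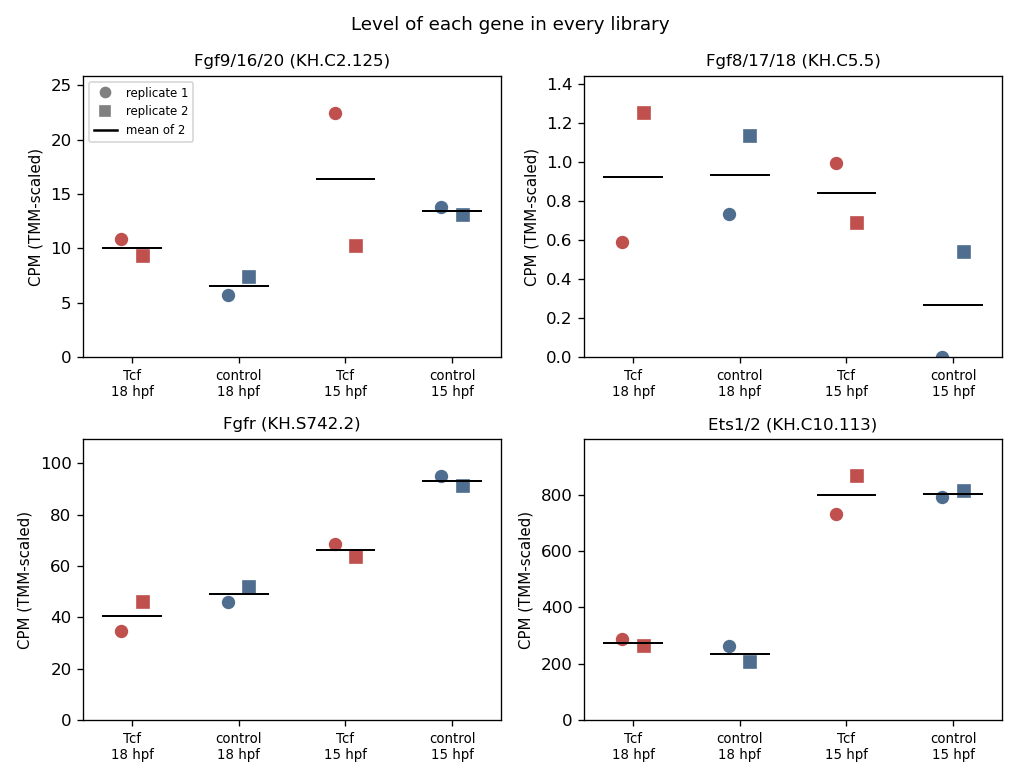
TMM-scaled CPM of each gene (vertical axis, from 0) in the 8 libraries, by gRNA and time; circles are replicate 1, squares replicate 2, and lines the mean of 2 libraries. Ets1/2 lies between 208 and 287 CPM at 18 hpf and between 731 and 868 CPM at 15 hpf, and Fgf8/17/18 stays at or below 1.25 CPM.

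Fgf9/16/20 encodes the FGF ligand known in Ciona as an inducer in the early embryo and in the heart lineage. It had 10.9 and 9.28 CPM in the Tcf libraries of 18 hpf and 5.76 and 7.36 CPM in the control libraries of 18 hpf. At 15 hpf it had 22.5 and 10.2 CPM in the Tcf libraries and 13.8 and 13.1 CPM in the control libraries. Tcf replicate 1 at 15 hpf stood above all the others, and its partner in the group was the lowest library of 15 hpf. These levels rest on 52 to 158 counts per library, and the fitted variation between libraries beyond counting error was 27.1% for this gene, against a median of 24.5% over all tested models.

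Over time, Fgf9/16/20 fell as the mean of both guides (-0.87 ± 0.27 on the log2 scale, fitted change ± SE; adjusted p = 0.0348 by the quasi-likelihood test of edgeR, Benjamini-Hochberg adjusted over all models tested). The call was lost in 6 of the 8 fits that left out 1 library each, and the adjusted p (edgeR) ran from 0.00658 to 0.197 over all alternatives. The smallest change, -0.54 on the log2 scale, came with Tcf replicate 1 of 15 hpf left out (adjusted p = 0.197, edgeR). Leaving out either control library of 15 hpf gave -0.87 and -0.90 (adjusted p = 0.0615 and 0.0507, edgeR). Leaving out control replicate 1 of 18 hpf gave -0.80, and either Tcf library of 18 hpf -0.93 and -0.82 (adjusted p = 0.103, 0.0782 and 0.109, edgeR). Within a guide the fall did not pass the threshold. The log2 fold change was -0.69 in Tcf libraries (SE 0.37, adjusted p = 0.284) and -1.04 in control libraries (SE 0.38, adjusted p = 0.103, edgeR). Without Tcf replicate 1 at 15 hpf the change in Tcf libraries was -0.03, so its size in that guide rested on this library. In control libraries both levels of 18 hpf lay below both of 15 hpf, an order that 24.9% of all tested models shared.

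Fgf8/17/18, the other secreted ligand, was close to the limit of detection. Its counts were 5 and 10 in the Tcf libraries of 18 hpf, 7 and 8 in the control libraries of 18 hpf, 7 and 5 in the Tcf libraries of 15 hpf, and 0 and 4 in the control libraries of 15 hpf. The sum over all 8 libraries was 46 counts. The control library without a count allows up to 0.506 CPM by a floor of 3 counts, while the control library beside it had 0.54 CPM. Both floors and counts cover counting error only, since no molecular identifiers are described.

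A fit of all 15005 models with any count included Fgf8/17/18 and gave wide intervals. The log2 fold change of 18 against 15 hpf was 0.88 as the mean of both guides, with a 95% interval from -0.85 to 2.61 (adjusted p = 0.521, edgeR). For Tcf against control it was -0.01 at 18 hpf, with an interval from -2.30 to 2.28, and 1.50 at 15 hpf, with an interval from -1.11 to 4.11 (adjusted p = 1 and 0.985, edgeR). Changes of up to 4.85-fold higher or to 0.203 of the control level at 18 hpf lie inside these limits. No difference of Fgf8/17/18 was detected in these comparisons.

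Fgfr encodes the FGF receptor tyrosine kinase. It had 34.9 and 45.9 CPM in the Tcf libraries of 18 hpf and 46.1 and 51.8 CPM in the control libraries of 18 hpf. At 15 hpf it had 68.8 and 63.4 CPM in the Tcf libraries and 95.2 and 91.3 CPM in the control libraries. All 4 libraries of 18 hpf lay below all 4 of 15 hpf, and at each time both Tcf libraries lay below both control libraries, at 18 hpf by a small margin. The counts behind these levels were 295 to 677 per library, and the fitted variation between libraries was 14.3%.

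The fall of Fgfr over time passed the threshold in both guides. In Tcf libraries it was 1.64-fold lower at 18 hpf (log2 fold change -0.71, SE 0.18, adjusted p = 0.0237, edgeR) and 1.91-fold lower in control libraries (log2 fold change -0.93, SE 0.18, adjusted p = 0.00431, edgeR). As the mean of both guides the log2 fold change was -0.82 (SE 0.13, adjusted p = 0.000509, edgeR), and it lay between -0.93 and -0.73 in the 8 fits that left out 1 library each. The call in Tcf libraries was lost without replicate 1 or 2 of 15 hpf (log2 fold change -0.66 and -0.79, adjusted p = 0.126 and 0.0623, edgeR) and without replicate 1 of 18 hpf (-0.53, adjusted p = 0.212, edgeR). It was lost too when libraries were scaled by their totals alone (-0.56, adjusted p = 0.0634, edgeR), and kept with DESeq2 (-0.72, adjusted p = 0.00591). In bulk libraries, fewer cells of a type and less transcript per cell cannot be told apart, for this gene and for the others.

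Ets1/2 encodes the Ets-family factor through which Erk acts on transcription in this lineage. It had 287 and 262 CPM in the Tcf libraries of 18 hpf and 262 and 208 CPM in the control libraries of 18 hpf. At 15 hpf it had 731 and 868 CPM in the Tcf libraries and 792 and 814 CPM in the control libraries. The highest library of 18 hpf lay far below the lowest of 15 hpf, while the guides lay close together at each time and overlapped at 15 hpf. With 1469 to 6297 counts per library and a fitted variation between libraries of 12.3%, it was the most precisely measured of the 4 genes.

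The level of Ets1/2 was 2.92-fold lower at 18 hpf in Tcf libraries (-1.54 on the log2 scale, SE 0.14, adjusted p = 2.01e-05, edgeR) and 3.42-fold in control libraries (-1.77, SE 0.14, adjusted p = 5.8e-06, edgeR). The mean of both guides was -1.66 on the log2 scale, with a 95% interval from -1.87 to -1.45 (adjusted p = 2.12e-07, edgeR). It stayed past the threshold under all 18 alternative settings, with values from -1.76 to -1.52. The transcript was lower at 18 hpf but still present, with a mean of 274 ± 17.6 CPM in Tcf libraries and 235 ± 37.9 CPM in control libraries (SD, n = 2 each).

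The 3 tested genes, chosen with earlier results of these data known, were read against all tested models. As the mean of both guides, 3 of 3 were called lower at 18 hpf, where 10.7% of all tested models were called lower and 22.9% in either direction. In Tcf libraries 2 of 3 were called lower (Fgfr and Ets1/2), where 5.37% of all models were called lower and 11.1% in either direction. In control libraries it was the same 2 genes, where 5.86% were called lower and 13% in either direction. Fgfr and Ets1/2 were thus called lower in both guides, as were 3.77% of all models. With library totals alone, 2 of 3 were called lower as the mean of both guides and 1 of 3 in Tcf libraries. That scaling called 901 and 440 of the 11970 models lower in these comparisons, where TMM called 1279 and 643. Without 1 library the log2 fold change ran from -1.12 to -0.54 for Fgf9/16/20 (mean of both guides). For Fgfr in Tcf libraries it ran from -0.93 to -0.53. With TMM and all 8 libraries, the median log2 fold change of the 3 genes as the mean of both guides was -0.87, and that of all tested models 0.04. Among all models, 1.85% had a lower log2 fold change than Ets1/2, 6.26% a lower one than Fgf9/16/20 and 6.92% a lower one than Fgfr. All 4 libraries of 18 hpf lay below all 4 of 15 hpf for Fgfr and Ets1/2 and for 12.8% of all models.

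**Figure D2:**
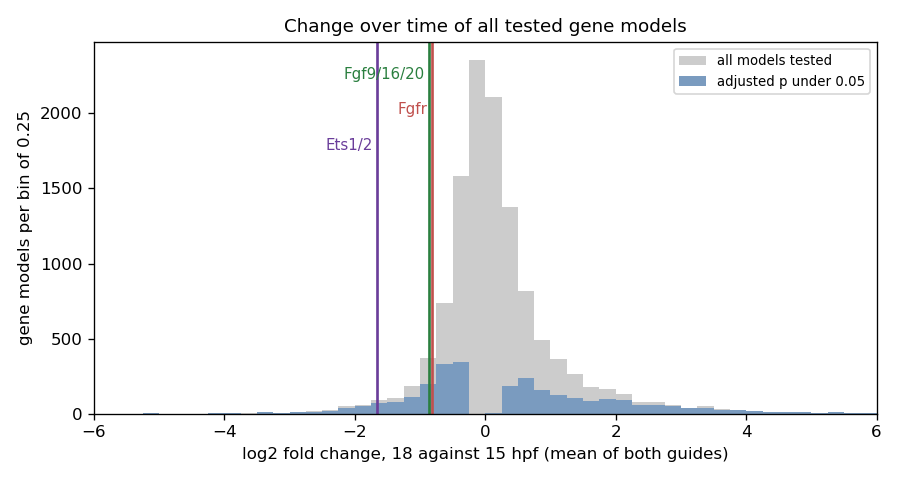
Number of gene models (vertical axis) by fitted log2 fold change of 18 against 15 hpf, mean of both guides, in bins of 0.25; grey bars are all 11970 models tested, blue bars those with adjusted p under 0.05, and lines mark the 3 tested genes. Ets1/2 at -1.66 lies further out in the lower tail than Fgf9/16/20 at -0.87 and Fgfr at -0.82; 12 models outside the range from -6 to 6 are not drawn.

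The comparison of Tcf with control gRNA asked whether transcripts of the FGF pathway differ in level when Tcf is targeted. None of the 3 tested genes was called at 18 hpf, at 15 hpf or as the mean of both times. This is read against a background in which few models were called, 0.00835% at each time and 0.0167% as the mean of both.

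For Fgfr the log2 fold change of Tcf against control was -0.28 at 18 hpf, with a 95% interval from -0.67 to 0.11 (unadjusted p = 0.149, adjusted p = 1, edgeR). That value was -0.09 without Tcf replicate 1 and -0.50 without Tcf replicate 2 of 18 hpf. At 15 hpf it was -0.50, with an interval from -0.88 to -0.11 (unadjusted p = 0.0156, adjusted p = 0.953, edgeR). The mean of both times was -0.39 (unadjusted p = 0.00963, adjusted p = 1, edgeR). The Tcf libraries averaged 66.1 ± 3.81 CPM at 15 hpf and the control libraries 93.3 ± 2.75 CPM (SD, n = 2 each). The order of the libraries under TMM, with Tcf below control and no overlap at both times, was shared by 2.18% of all tested models. At 18 hpf it rested on 45.9 CPM in Tcf replicate 2 and 46.1 CPM in control replicate 1. With library totals alone this order was not kept, since 366 of 7764525 counts is a larger share than 440 of 9556959. The unadjusted p-values did not survive adjustment over the 11970 models, and in the 8 fits that left out 1 library each the mean ran from -0.50 to -0.29.

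For Ets1/2 the intervals included 0. The log2 fold change of Tcf against control was 0.22 at 18 hpf, with a 95% interval from -0.07 to 0.52, and -0.01 at 15 hpf, with an interval from -0.30 to 0.28 (adjusted p = 1 and 0.999, edgeR). At 18 hpf both Tcf libraries lay above both control libraries by a small margin (261.7 CPM in the lower Tcf library and 261.5 CPM in the higher control library), an order that 16.7% of all models shared. The value at 18 hpf was 0.03 without control replicate 2 and 0.39 without control replicate 1 of that time. As the mean of both times the ratio of Tcf to control was 1.08, and its 95% limits were 0.935 and 1.24. In the 8 fits that left out 1 library each, the log2 value of this mean ran from 0.0076 to 0.19.

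For Fgf9/16/20 the intervals were wide. The log2 fold change of Tcf against control was 0.62 at 18 hpf, with a 95% interval from -0.21 to 1.46 (unadjusted p = 0.13, adjusted p = 1, edgeR). At 15 hpf it was 0.28, with an interval from -0.53 to 1.09 (adjusted p = 0.983, edgeR). The 18 hpf levels did not overlap, with 10.08 ± 1.13 CPM in Tcf and 6.56 ± 1.13 CPM in control libraries (SD, n = 2 each), as for the 16.7% of all models whose Tcf libraries lay above the control libraries at that time. The sign at 15 hpf turned without Tcf replicate 1 (log2 fold change -0.40). The mean of both times was 0.45 on the log2 scale, 0.11 without that library and 0.68 without Tcf replicate 2 of 15 hpf. A ratio of Tcf to control of up to 2.05 or down to 0.914 as the mean of both times lies inside the limits.

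The interaction of guide and time tested whether the effect of the Tcf gRNA at 18 hpf differed from that at 15 hpf, which is the same as whether the fall over time differed between guides. It called none of the 3 genes and 0% of all models (edgeR, 561 of 11970 at an unadjusted p under 0.05; DESeq2 called 21 models and limma-voom 0, none of them among the 3 genes). The interaction on the log2 scale was 0.35 for Fgf9/16/20, 0.22 for Fgfr and 0.23 for Ets1/2. The 95% interval ran from -0.81 to 1.51 for Fgf9/16/20, from -0.33 to 0.77 for Fgfr and from -0.18 to 0.64 for Ets1/2 (adjusted p = 0.994, 0.989 and 0.989, edgeR). The weaker falls in Tcf than in control libraries were therefore not shown to differ.

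**Figure D3:**
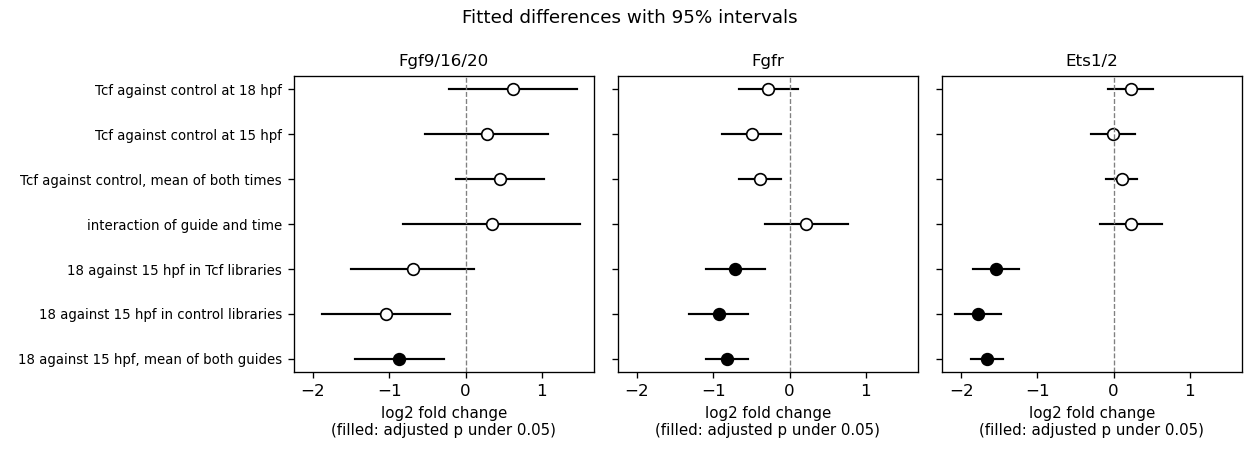
Fitted log2 fold changes (horizontal axis) of the 3 tested genes in the 7 comparisons, with 95% intervals; filled points have an adjusted p under 0.05. The filled points are Fgfr and Ets1/2 in each comparison of 18 with 15 hpf and Fgf9/16/20 in the mean of both guides, and no comparison of Tcf with control is filled.

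Ratios of counts within a library do not depend on how libraries are scaled, and the unknown lengths of the models cancel when a ratio is compared between libraries. These ratios were computed after the levels had been seen, so they are given without a test. Fgf9/16/20 had 0.312 and 0.202 counts per count of Fgfr in the Tcf libraries of 18 hpf and 0.125 and 0.142 in the control libraries of 18 hpf. At 15 hpf the ratio was 0.327 and 0.161 in the Tcf libraries and 0.145 and 0.143 in the control libraries. All 4 Tcf libraries lay above all 4 control libraries, while the libraries of the 2 times overlapped in the Tcf group. Of all other tested models, 2.46% had a count per Fgfr count that was higher in all 4 Tcf than in all 4 control libraries.

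Ets1/2 had 8.21 and 5.70 counts per count of Fgfr in the Tcf libraries of 18 hpf and 5.67 and 4.01 in the control libraries of 18 hpf. At 15 hpf the ratio was 10.6 and 13.7 in the Tcf libraries and 8.32 and 8.91 in the control libraries. The transcript of the factor thus decreased relative to that of the receptor, with each library of 18 hpf below each of 15 hpf, though the closest were 8.21 in a Tcf library of 18 hpf and 8.32 in a control library of 15 hpf. Of all other tested models, 0.911% showed this order over time relative to Fgfr. At both times the ratio was higher in Tcf than in control libraries without overlap, as it was for 23.2% of models. At 18 hpf the closest were nearly equal, 5.70 in Tcf replicate 2 and 5.67 in control replicate 1, with counting errors of 5.2% and 4.8% for Fgfr alone. For both ratios to Fgfr, this divisor had a lower mean TMM-scaled level in Tcf than in control libraries at both times.

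Ets1/2 had 26.3 and 28.2 counts per count of Fgf9/16/20 in the Tcf libraries of 18 hpf and 45.4 and 28.25 in the control libraries of 18 hpf. At 15 hpf the ratio was 32.5 and 85.1 in the Tcf libraries and 57.2 and 62.2 in the control libraries. The 2 Tcf libraries of 15 hpf were the farthest apart, in opposite directions from the control libraries, and the groups of the 2 guides overlapped at 15 hpf.

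**Figure D4:**
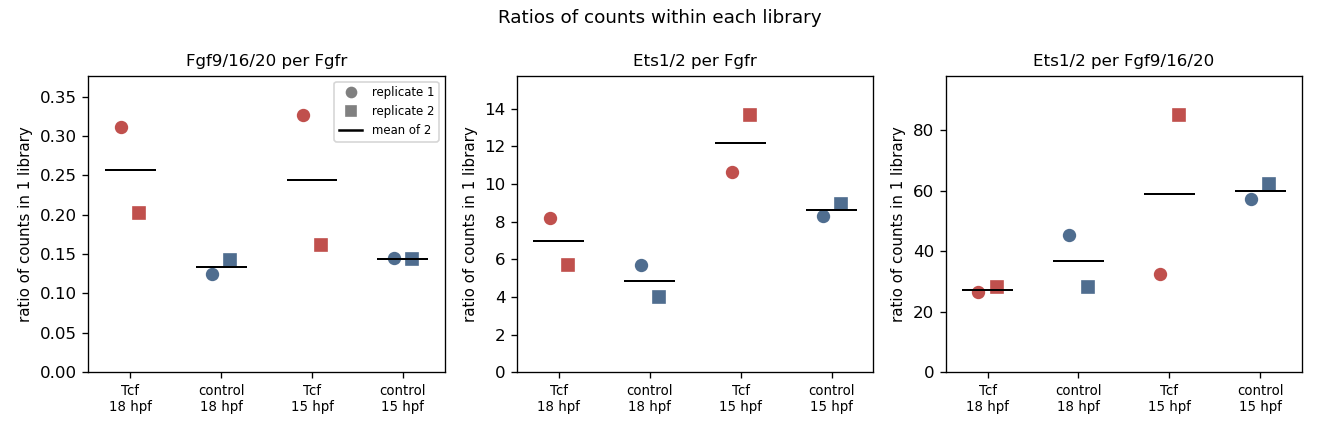
Ratio of the counts of 2 genes within each library (vertical axes, from 0), by gRNA and time; circles are replicate 1, squares replicate 2, and lines the mean of 2 libraries. Fgf9/16/20 per Fgfr is 0.161 to 0.327 in the Tcf libraries and 0.125 to 0.145 in the control libraries, and Ets1/2 per Fgfr is lower at 18 than at 15 hpf in both guides.

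The models most like these genes in pattern were sought by the root-mean-square difference of log2 CPM over the 8 libraries, each model centred on its own mean. The nearest to Ets1/2 was KH.C4.635, at a difference of 0.112, where the median over all models was 0.923. It had 206 to 251 CPM in the libraries of 18 hpf and 653 to 666 CPM in those of 15 hpf. The nearest to Fgfr was KH.C4.323, at 0.117, where the median over all models was 0.600, with 197 to 239 CPM at 18 hpf and 337 to 467 CPM at 15 hpf. Both models were picked as the smallest of all differences, so both lay below the median by selection. The sources used here do not name these models. The rest of the pathway (other ligands, adaptors, the kinase cascade, its inhibitors and other Ets factors) was not analysed here, because the identifiers could not be paired with names.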

How the data were processed

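RNA of sorted cells was amplified by SMART-Seq v4 and made into libraries with an Ovation Ultralow kit, per the labels' protocols. The deposited values are raw counts of reads per KH gene model, and the authors used TopHat2 2.0.12 and featureCounts, per the submitters' processing notes. The sources used here do not state the genome build, the strand setting or how multi-mapping reads were treated, so reads of overlapping or near-identical models could be shared. For control at 15 hpf the numbers 1 and 2 in the file headers are exchanged relative to the titles, which were followed.

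The 4 genes, the lists and the rules were chosen with earlier results of these data known. Counts were fitted with edgeR 4.0.16 (R 4.3.3): filterByExpr with a minimum count of 10, TMM factors, 4 group means over all 8 libraries (4 residual degrees of freedom before moderation), robust quasi-likelihood F tests of 7 contrasts, Benjamini-Hochberg adjustment over 11970 models, with a threshold of 0.05 on the adjusted p. SE is the absolute fitted log2 change over the root of F, and 95% intervals use the moderated degrees of freedom. Named were the 4 genes and, for each tested gene, the model of most similar pattern, at most 2 that fell. The log2 CPM used there had a prior count of 2. DESeq2 1.42.0, limma-voom (limma 3.58.1), other scalings, no filter, fewer libraries and a replicate block were alternatives. The fitting functions were tested on simulated data. Lists of pathway genes and cell type markers could not be applied.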

Additional observations from a re-analysis of the deposited data

How the results depend on the processing

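The 3 tested genes in 7 comparisons gave 21 results, and of 390 values under alternatives 373 kept their direction and their side of the threshold, 12 lost a call and 5 changed sign, none of these last in a called result. The fall of Fgf9/16/20 over time as the mean of both guides lost its call with limma-voom (-0.82, adjusted p = 0.0573) and with library totals alone (-0.73, adjusted p = 0.0789, edgeR), and ran from -1.12 to -0.54 without 1 library. The fall of Fgfr in Tcf libraries lost its call with library totals alone (-0.56, adjusted p = 0.0634, edgeR) and ran from -0.93 to -0.53 without 1 library. The sign changes came without 1 library: Tcf against control at 15 hpf ran from -0.40 to 0.75 for Fgf9/16/20 and from -0.13 to 0.11 for Ets1/2, and the interaction from -0.14 to 1.02 for Fgf9/16/20 and from -0.0034 to 0.40 for Fgfr. Fits that leave a group with 1 library assume that it varies like the other groups.

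Library totals alone gave a median log2 change over time of 0.18 over all models, against 0.04 under TMM. Relative to that median Fgf9/16/20, Fgfr and Ets1/2 changed by -0.91, -0.86 and -1.70 under TMM and by -0.91, -0.86 and -1.70 under totals alone. This match is fixed by arithmetic, because scaling shifts all models by nearly the same amount and the median takes that out. It is no test of the falls. Library totals alone called 2015 models higher and 901 lower, against 1458 and 1279 under TMM. Over all models, Tcf against control gave 1 call at 18 hpf, against 16 with DESeq2, 0 with only the 4 libraries compared, 0 with the non-robust spread and 0 to 6 without 1 library. At 15 hpf the 1 call became 22 with DESeq2, 3 with limma-voom, 2 with library totals, 4 without the filter, 2 with only the 4 libraries, 2 with the block by file-name numbers and 1 to 19 without 1 library. The mean of both times gave 2 calls, against 15 with DESeq2, 1 with limma-voom, 4 without the filter and 1 to 11 without 1 library, and the interaction 0, against 21 with DESeq2, 1 without the filter and 0 to 7 without 1 library. Calls over time ran from 687 to 1475 in Tcf libraries (1325 with all) and from 931 to 1535 in control libraries (1557 with all) without 1 library.

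Whether libraries of the same replicate number share a batch is not given by the labels. Between pairs of groups, the differences of replicate 1 from replicate 2 correlated, across genes, between -0.171 and 0.0589. With the replicate block, Fgf9/16/20 changed by -0.84 over time (mean of both guides, adjusted p = 0.0476, edgeR), and the block changed no call of the 3 genes. Numbers crossed at 18 hpf, added after seeing the data, gave 1 call for Tcf against control at 18 hpf and 4 at 15 hpf. Fgf8/17/18 gave a fitted value only without the filter on low counts, and whether depth limited its counts was not tested.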
